A study of Arabidopsis thaliana with 28 samples.

Results

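Abscisic acid (ABA) is the plant hormone of drought response and seed dormancy. Mature miRNAs were compared in seedlings kept under ABA for 1 h and in seedlings given the ethanol mock for 1 h, with 2 libraries in each group. Both groups were whole seedlings of wild-type Arabidopsis thaliana, ecotype Col-0, and the labels name no other genotype or agent. The 4 libraries belong to a series of 28, with 7 times of each treatment. Neither the dose of ABA nor the age of the seedlings is given in the sources used here. All miRNAs whose mean of the ABA and mock group values was at least 10 normalised reads were described, which took 355 of the 421 miRNAs listed. The other 66 were below this level, 12 of them at 0 in both groups.

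A plant miRNA is cut from a hairpin transcript by DCL1 as a duplex of a guide strand and a passenger strand. The guide is loaded mostly into AGO1 and directs the cleavage of mRNAs that pair with it almost along its whole length, while the passenger strand is usually degraded. The endings 5p and 3p name the arm of the hairpin that a strand comes from. Several families are known from nutrient responses: miR395 from sulfate, miR399 and miR827 from phosphate, and miR397, miR398, miR408 and miR857 from copper. The miR169 guides target NF-YA transcription factor subunits, which act in drought tolerance.

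The sequences below are those of the miRNAs on which the comparison turned, 5′ to 3′, with the seed (bases 2 to 8) in capitals. They were read from the RefSeq annotation of TAIR10.1, in which 413 of the 421 names were matched. The first set is that of the raised nutrient families, where miR395b and miR395a stand for 3 loci each, and miR399d and miR399f share a seed.
miR395b: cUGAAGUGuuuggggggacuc
miR395a: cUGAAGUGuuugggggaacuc
miR399d: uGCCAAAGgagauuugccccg
miR399f: uGCCAAAGgagauuugcccgg
miR397a: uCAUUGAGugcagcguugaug
miR397b: uCAUUGAGugcaucguugaug
miR857: uUUUGUAUguugaagguguau
miR398a-3p: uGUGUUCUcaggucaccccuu
miR408-3p: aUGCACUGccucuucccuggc
miR408-5p: aCAGGGAAcaagcagagcaug
The second set shows miR169 strands that were called, 2 lowered 5p guides and 2 raised 3p arms. The 5p guides of MIR169b and MIR169c are identical, as are those of MIR169f and MIR169g, while the 3p arms of MIR169f and MIR169g differ in their 5′ end and so in their seed.
miR169b-5p: cAGCCAAGgaugacuugccgg
miR169g-5p: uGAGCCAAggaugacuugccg
miR169f-3p: gCAAGUUGaccuuggcucugc
miR169g-3p: uCCGGCAAguugaccuuggcu
The third set holds miR860, the lowered miRNA that kept its call whichever library was left out. It also holds 2 miRNAs whose difference at 1 h stood apart from the mean of those at the other 6 times.
miR860: uCAAUAGAuuggacuauguau
miR2111b-3p: aUCCUCGGgauacaguuuacc
miR390a-5p: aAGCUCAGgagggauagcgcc

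The authors' deposited table gives 1 normalised read count per miRNA and group, the mean of 2 libraries. The group totals were 7644818 under ABA and 6982956 under mock, a log2 ratio of 0.13. They are sums over entries, and a read of a shared sequence may be counted at more than 1 entry. The 7 entries of the miR166 guide, for example, lay within 1.05-fold of each other under ABA and 1.06-fold under mock. Shares of these totals are therefore not shares of reads. The 2 library values behind a mean could be recovered in both groups for 314 of the 355 described miRNAs. The other 41 were abundant, with a mean of at least 19412.5, and held 93.1% of the ABA total and 93.3% of the mock total. These are compared by their group means only. The recovered counts summed to 610431 and 532646 in the ABA libraries and to 631111 and 492738 in the mock libraries, so the depth of whole libraries is not known. Library a of a group is the one with the larger size factor and library b the other, and library values come in that order. Libraries a and b differed on the log2 scale with an SD of 0.55 under ABA (320 miRNAs) and 0.48 under mock (314 miRNAs). Counts of a and b differed by more than sampling noise in both groups, with a chi-square per miRNA of 60.7 under ABA and 67.9 under mock. The labels do not say that the libraries of a group were grown apart, so the spread between them may be technical. The limma p-values below measure this spread as estimated over all 14 groups of the series, not at 1 h alone. Its SD ran from 0.34 under mock at 12 h to 0.70 under ABA at 24 h. In whole seedlings, fewer cells of a type and less RNA per cell cannot be told apart, and a table of miRNAs alone holds no marker genes against which the tissue could be checked.

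After 1 h of ABA, all 6 entries of the sulfate family miR395 were raised, with 5 of 11 entries of the copper families and 3 of 12 of the phosphate families. Of the miR169 guide or single strands 3 of 14 entries (4 distinct sequences) were lowered, and most miRNAs did not pass the test. Of the 355 described miRNAs, 26 were raised (21 distinct sequences), 9 were lowered (7 distinct sequences), 279 did not pass and 41 were not tested. The test was limma on log2(value + 1) over the 28 libraries, with Benjamini-Hochberg adjusted p under 0.05, and all log2 differences below are on that scale. Over the 375 miRNAs tested, 6.93% were called raised and 2.67% lowered, and 70 had an unadjusted p under 0.05. The tenth lowered miRNA, miR3440b-5p, was below the level for description. The authors' deposited table has an adjusted p under 0.05 for 19 miRNAs at 1 h, 4.65% of the 409 with a value. All 19 were among the limma calls, 15 raised and 4 lowered.

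These counts changed when 1 library was left out and with the scaling. A fit without 1 library leaves its group with 1, so the error is larger and a call can be lost at a like difference. This was so for miR1888a without either mock library, and for miR408-3p without either ABA library. Leaving out ABA library b left 14 raised calls, mock library b 11, ABA library a 21 and mock library a 19. Lowered calls numbered 3 without mock library a and 4 without any one of the other libraries. Quantile normalization gave 15 raised and 23 lowered, against 26 and 10 with the authors' scaling, and moved the median log2 difference of all tested miRNAs to -0.14. All of those 15 were among the 26, and each of the 9 lowered miRNAs was called again. Calls that held in all 4 fits with 1 library left out were 7 raised (miR395b, miR395c, miR395f, miR397a, miR169f-3p, miR169g-3p and miR408-5p) and 1 lowered (miR860).

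**Figure D1:**
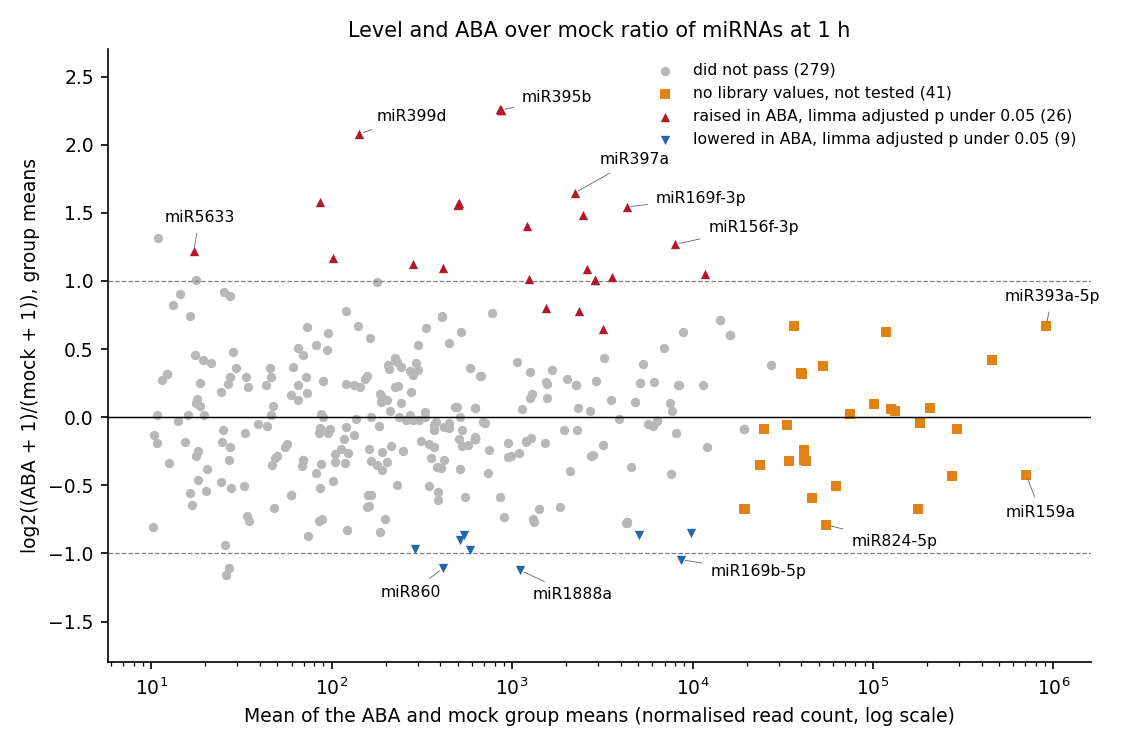
Each point is 1 of the 355 described miRNAs, with the mean of its ABA and mock group means on a log axis (normalised read count) and its log2 ratio of ABA over mock on the vertical axis; dashed lines mark a 2-fold ratio. The 26 raised and 9 lowered miRNAs are coloured, and the 41 squares on the right are abundant miRNAs that could not be tested.

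By the ratio of group means alone, log2((ABA + 1)/(mock + 1)), the described miRNAs had a median of -0.02, quartiles of -0.31 and 0.32, and a range of -1.16 to 2.26. Within 1.5-fold lay 262 of them. At least 2-fold higher under ABA were 25, of which 23 were called, and at least 2-fold lower were 5, of which 3 were called. Over all 421 listed miRNAs, 7.6% were at least 2-fold higher and 2.14% at least 2-fold lower. The 4 that passed the fold and not the test had few reads. miR399e had 12.2 and 19.9 in the ABA libraries, against 6.07 and 5.64 in the mock libraries, and miR172d-5p had 23.2 and 24.9 under ABA, against 18.2 and 4.7 under mock. On the other side miR864-5p had 16.6 and 14.9 under ABA, against 37.2 and 35.7 under mock, and miR5632-3p had 18.8 and 14.9 under ABA, against 40.2 and 34.8 under mock. Their groups did not overlap, yet the adjusted p lay between 0.0913 and 0.476.

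Both ABA libraries lay above both mock libraries for 84 described miRNAs, 26 of them called, and below both for 71, 9 of them called. The remaining 159 tested ones overlapped, and 0 of these was called by limma. Among all 375 tested, 25.3% lay above and 20.8% below, so a lack of overlap was common in these libraries.

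**Figure D2:**
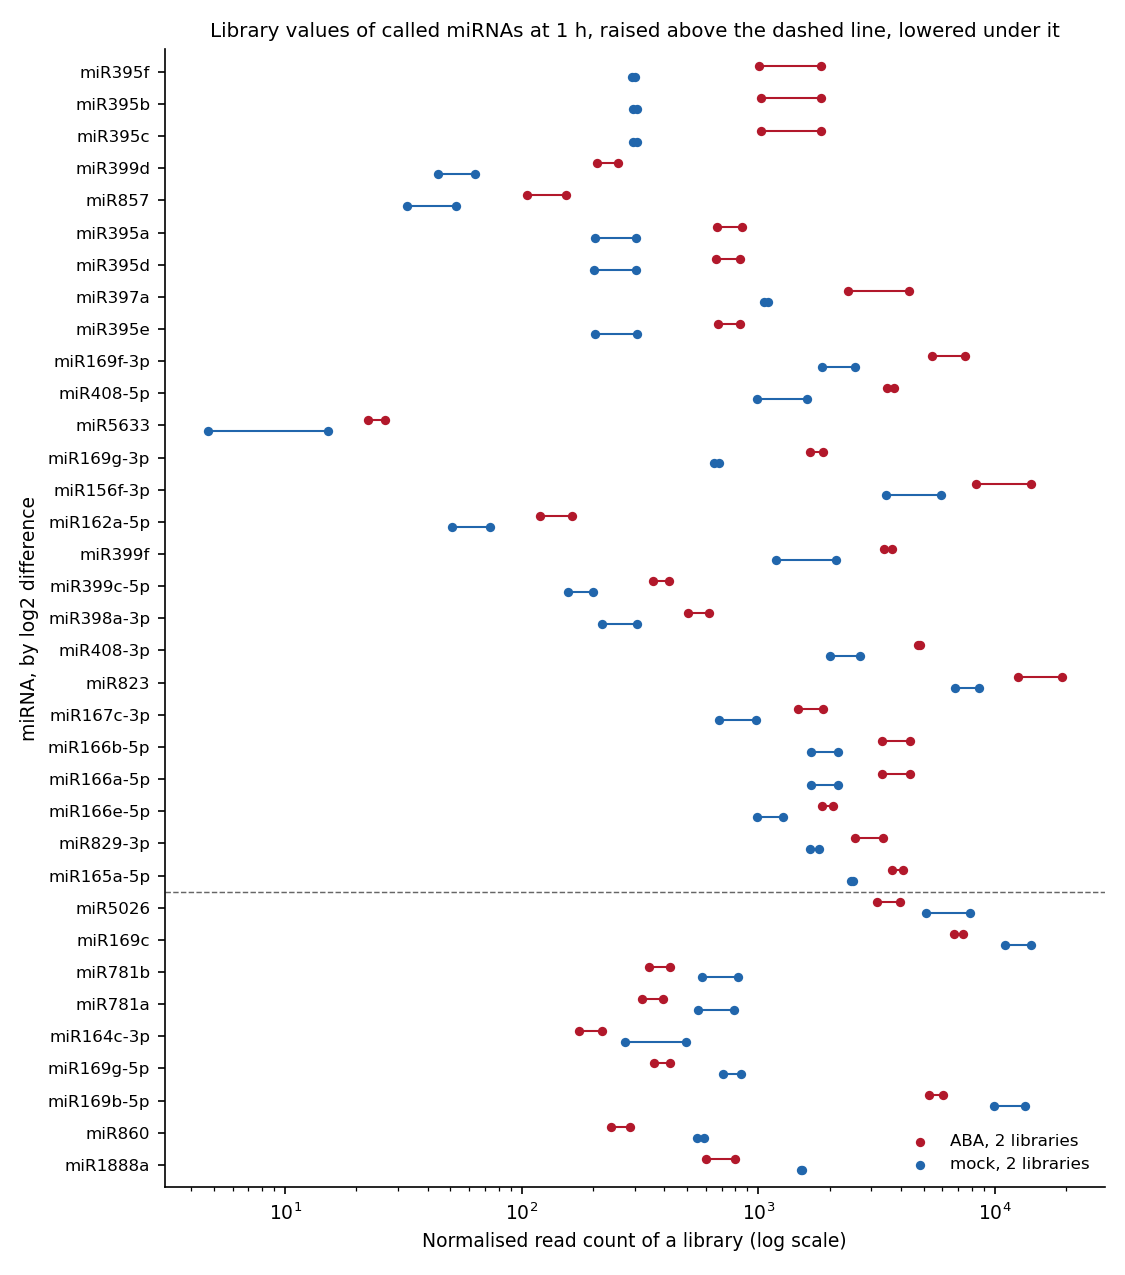
Normalised read counts of the 4 libraries at 1 h (log axis) for the 35 described miRNAs that passed limma, ABA in red above mock in blue on each line, with a bar joining the 2 libraries of a group. The miRNAs run by log2 difference, from miR395f at 2.20 to miR1888a at -1.14, and in each of them the groups do not overlap.

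All 6 entries of the sulfate family miR395 were raised, beside 6.93% of all miRNAs tested, with a median log2 ratio of 1.91. Its sequence at miR395b, miR395c and miR395f had the largest differences of the described miRNAs. miR395 guides cleave the mRNAs of ATP sulfurylases, the first enzymes of sulfate assimilation, and of the sulfate transporter SULTR2;1. The family has 2 mature sequences, and reads cannot be assigned to 1 of the 3 loci of each. miR395b (chr1:9364540-9364560, plus strand, TAIR10.1) had 1024 and 1848 normalised reads in the ABA libraries, against 306 and 295 in the mock libraries. The ABA libraries were far apart from each other and the mock libraries close together, without overlap. Its log2 difference was 2.19 (SE 0.37, adjusted p = 0.000675, limma), a fold of 4.57. miR395c and miR395f, with the same sequence, had differences of 2.19 and 2.20.

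The second sequence is that of miR395a, miR395d and miR395e, and how it differs from the first was not tested. miR395a (chr1:9363206-9363226, minus strand) had 667 and 850.1 in the ABA libraries, against 204 and 305 in the mock libraries. Its log2 difference was 1.59 (SE 0.36, adjusted p = 0.00571, limma), a 3.01-fold rise, and miR395d and miR395e were at 1.58 each. Without ABA library b or mock library a, the calls of these 3 were lost, at 1.42 and 1.30 for miR395a with adjusted p = 0.0729 and 0.098. With quantile normalization they were lost too, at 1.28 for miR395a (adjusted p = 0.0649). The authors' deposited table puts the second sequence before the first, with an adjusted p of 6.24e-05 for miR395a and 0.0511 for miR395b. MIR395a, MIR395b and MIR395c lie together on chromosome 1, and MIR395d, MIR395e and MIR395f in a second cluster there, with miR395d at chr1:26269989-26270009. The 2 sequences therefore do not follow the 2 clusters, since miR395a is in the first and miR395f in the second.

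Of 11 miRNAs of the copper families, 5 were raised and 0 lowered, beside 6.93% and 2.67% of all miRNAs tested. Another 5 did not pass and 1, miR397b, was not tested. The median log2 ratio of the 11 was 0.63, beside -0.02 over all described miRNAs. Of the 10 tested, 9 had a difference above 0 with the authors' scaling and 5 with quantile normalization, where all entries of miR398 but miR398a-3p were below 0. miR397a, which targets laccases, copper enzymes of lignin formation, had 2403 and 4342 in the ABA libraries, against 1101 and 1052 in the mock libraries. The ABA libraries were far apart, both above the close mock libraries. The log2 difference was 1.58 (SE 0.26, adjusted p = 0.000675, limma), a fold of 3.00, and it ran from 1.16 without ABA library b to 2.01 without ABA library a, called each time. The authors' deposited adjusted p of miR397a was 0.172. Its relative miR397b, of the same seed, had group means of 143375 under ABA and 92882 under mock, a log2 ratio of 0.63.

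miR857, which targets the laccase LAC7, lies next to miR397b on chromosome 4, at chr4:7878198-7878218 and chr4:7878730-7878750 on the minus strand. It had 105 and 154 in the ABA libraries, against 32.6 and 52.7 in the mock libraries, with a log2 difference of 1.59 (SE 0.37, adjusted p = 0.00654, limma). Without ABA library b it was 1.32 (adjusted p = 0.115), and without mock library a it was 1.26 (adjusted p = 0.102).

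Both arms of MIR408 were raised. The guide miR408-3p, directed against plantacyanin and laccase mRNAs, had 4821 and 4745 in the ABA libraries, against 2688 and 2007 in the mock libraries. The ABA libraries agreed closely and lay above both mock libraries, with a log2 difference of 1.04 (SE 0.25, adjusted p = 0.00808, limma). The passenger strand miR408-5p had 3752 and 3495 under ABA, against 989 and 1604 under mock, with a difference of 1.52 (SE 0.28, adjusted p = 0.00169, limma). miR408-5p held its call without any one library, and miR408-3p lost its call without ABA library a, ABA library b or mock library b, at 1.03, 1.05 and 0.83. Quantile normalization also lost miR408-3p, at 0.52 (adjusted p = 0.274).

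In the miR398 family, whose guides target copper superoxide dismutases, only the locus-specific guide miR398a-3p passed. It had 619 and 505 in the ABA libraries, against 306 and 218 in the mock libraries, with a log2 difference of 1.11 (SE 0.21, adjusted p = 0.00169, limma). Without mock library b it was 0.87 (adjusted p = 0.0523). The guide shared by miR398b and miR398c had 3929 and 7207 under ABA, against 5771 and 3599 under mock at the miR398b locus. These groups overlapped, and the 95% interval of the log2 difference ran from -0.41 to 0.86. The passenger strands miR398b-5p and miR398c-5p had ratios of 0.60 each without a call (adjusted p = 0.174, limma), and miR398a-5p had a log2 difference of -0.20. The difference between miR398a-3p and the shared guide was not tested.

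All 12 described miRNAs of the phosphate families (miR399, miR827 and miR2111), of 10 distinct sequences, had a log2 ratio above 0. Over all described miRNAs 173 of 355 were above 0. The median of the 12 was 0.76, beside -0.02 over all described, and no sign changed under the other scalings. Of the 12, 3 were raised by the test, all of miR399, beside 6.93% of all miRNAs tested. miR399 guides cleave the mRNA of PHO2, a ubiquitin-conjugating enzyme that limits phosphate uptake. miR399d (chr2:14442988-14443008, minus strand) had 254 and 209 in the ABA libraries, against 63.7 and 44.2 in the mock libraries. Both ABA values were well above both mock values, and the log2 difference was 2.10 (SE 0.44, adjusted p = 0.00373, limma), a fold of 4.28. The neighbour miR399f (chr2:14445084-14445104, plus strand) had 3675 and 3390.4 under ABA, against 2132 and 1191 under mock, with a difference of 1.15 (SE 0.25, adjusted p = 0.00451, limma). Both lost their call only without mock library b, at 1.84 (adjusted p = 0.0638) for miR399d and 0.73 (adjusted p = 0.14) for miR399f.

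The passenger strand miR399c-5p had 359 and 421 in the ABA libraries, against 199.6 and 157 in the mock libraries, with a log2 difference of 1.13 (SE 0.30, adjusted p = 0.0205, limma). Without ABA library a, ABA library b or mock library b the call was lost, at 1.25, 1.02 and 0.96. Its guide miR399c-3p had 305 and 360.4 under ABA, against 326 and 179 under mock, and overlapped. miR399a came close to the threshold at 1.08 (adjusted p = 0.078) and passed it when only the 1 h libraries were fitted (adjusted p = 0.00671). That fit drew its error almost wholly from the spread pooled over all miRNAs, not from that of miR399a. miR827, which targets the SPX protein NLA, had 717 and 556 under ABA, against 525 and 298 under mock, with a difference of 0.67 (adjusted p = 0.21, limma). The members of miR2111 had ratios of 0.40 to 0.90, none called.

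The miR169 family had calls in both directions. Of its 18 described entries (8 distinct sequences), 3 were lowered and 2 raised, beside 2.67% and 6.93% of all miRNAs tested. Another 12 did not pass and 1 was not tested. All 14 entries of the 5p guide or of a single listed strand had a ratio below 0, with a median of -0.77. Over all described miRNAs 182 of 355 were below 0, with a median of -0.02. All 3 lowered miR169 entries were among the 14. The 13 tested of these were below 0 under each scaling. The 14 entries hold only 4 distinct sequences, so their signs are not separate results. miR169b-5p (chr5:8527511-8527531, plus strand) had 5251 and 6021 in the ABA libraries, against 13349 and 9933 in the mock libraries. The ABA libraries were close together and below both mock libraries, with a log2 difference of -1.03 (SE 0.24, adjusted p = 0.00689, limma), 2.05-fold lower. miR169c, of the same sequence, had 6711 and 7335 under ABA, against 14279 and 11060.2 under mock, and a difference of -0.84 (SE 0.24, adjusted p = 0.0292, limma). miR169g-5p had 363 and 425 under ABA, against 842 and 710.0 under mock, and fell by 0.98 on the log2 scale (adjusted p = 0.0286, limma).

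Each of these 3 calls was lost in some fits with 1 library left out, in which the error is larger. miR169b-5p was at -0.94 without ABA library a (adjusted p = 0.0713) and at -0.82 without mock library a (adjusted p = 0.105). miR169c and miR169g-5p lost their call without any one of the 4 libraries, with differences of -1.02 to -0.66 and of -1.10 to -0.85. The shared sequence of miR169h to miR169n had differences of -0.76 to -0.67 at its 7 loci, none called with all libraries of the series (adjusted p of 0.1 to 0.476, limma). When only the 1 h libraries were fitted, 6 of them were called, again with an error pooled almost wholly over all miRNAs. These 6 are entries of 1 sequence and not separate results. Loci of the same sequence had unlike values: miR169d, miR169e, miR169f-5p and miR169g-5p are identical, yet miR169d had 1167 and 1068 in the ABA libraries, against 1087 and 1432 in the mock libraries, a ratio of -0.17, and miR169g-5p was at -0.98. The split of reads between such loci is uncertain.

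The 3p arms of 2 miR169 hairpins were raised. miR169f-3p (chr3:4805713-4805733, minus strand) had 5414 and 7446 in the ABA libraries, against 2554 and 1858 in the mock libraries. Both ABA values were well above both mock values, and the log2 difference was 1.54 (SE 0.26, adjusted p = 0.000675, limma), a fold of 2.91. miR169g-3p (chr4:11483034-11483054, minus strand) had 1881 and 1648 under ABA, against 681 and 653 under mock, with a difference of 1.40 (SE 0.26, adjusted p = 0.00169, limma). With quantile normalization miR169g-3p was at 0.91 (adjusted p = 0.0886). The 3p arms of MIR169a and MIR169b did not pass: miR169a-3p was at -0.10 (95% interval -0.63 to 0.44) and miR169b-3p at 0.00 (-0.73 to 0.73).

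The ratio of the 3p to the 5p arm in each library was tested across 69 hairpins, a test added after the data had been seen. It was called higher under ABA for 6 hairpins and lower for 0, with 12 at an unadjusted p under 0.05, so 8.7% were called by limma. In MIR169f there were 8.16 and 10.6 reads of the 3p arm per read of the 5p arm in the ABA libraries, against 2.31 and 1.96 in the mock libraries. The log2 difference of the ratio was 2.13 (SE 0.26, adjusted p = 1.33e-05, limma). In MIR169g the ratio was 5.17 and 3.87 under ABA, against 0.809 and 0.919 under mock. Its log2 difference was 2.38 (SE 0.37, adjusted p = 0.000149, limma), and both of these calls held without any one library. The 5p arms of MIR169f and MIR169g are 1 sequence, shared with miR169d and miR169e, so the 5p reads in these ratios cannot be assigned to 1 locus. MIR169b was not called, at 1.04 (adjusted p = 0.0571).

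The other 4 hairpins called were less secure. In MIR398a the ratio was 1.20 and 0.942 under ABA, against 0.474 and 0.385 under mock, a log2 difference of 1.31 (adjusted p = 0.0294). MIR829 had 1.37, MIR167c 0.68 and MIR3440b 2.28, the last with a mean of under 10 reads for the 5p arm. Each of the 4 was called in 1 of the 4 fits with 1 library left out, MIR398a and MIR3440b without ABA library b, MIR829 without ABA library a and MIR167c without mock library a. Among 82 hairpins with both arms described, 42 had arms on opposite sides of 0 by their ratios, 19 had both above and 21 both below.

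**Figure D3:**
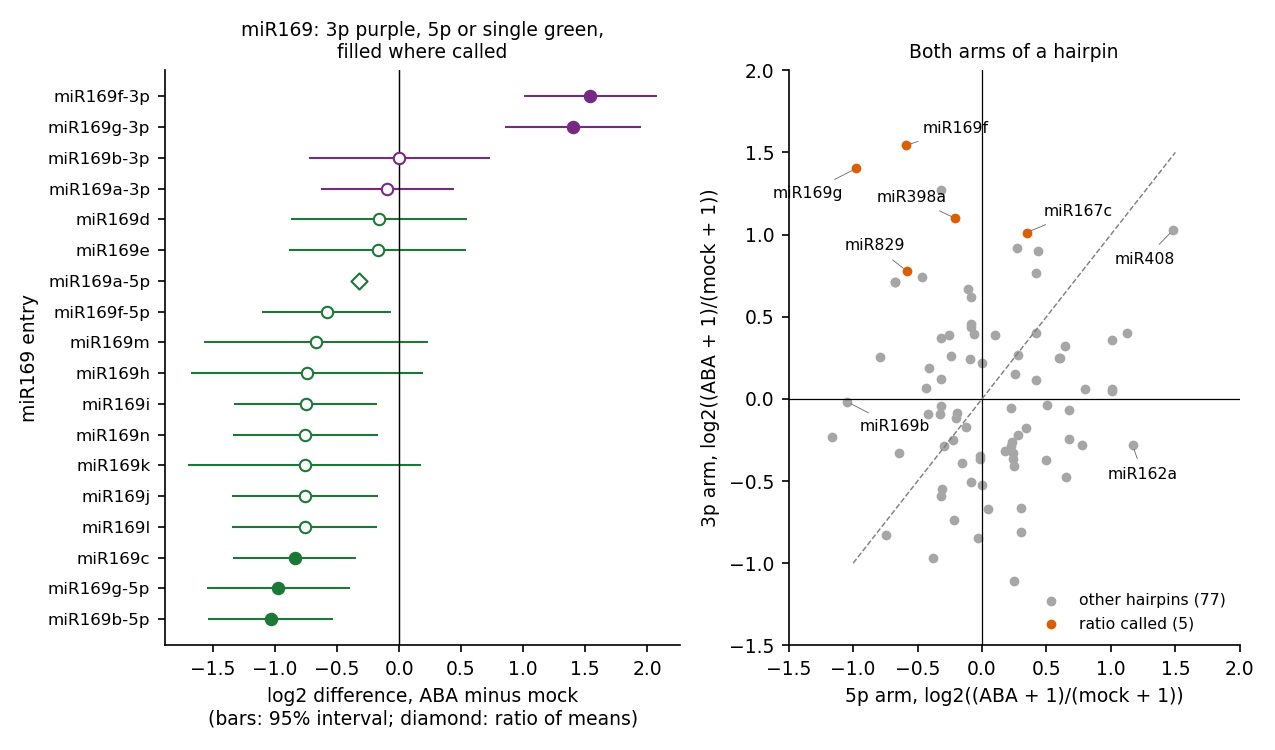
Left, the log2 difference of each miR169 entry with its 95% interval, 3p arms in purple and 5p or single strands in green, filled where called; the diamond is the ratio of means of miR169a-5p, which was not tested. Right, the log2 ratio of the 3p arm against that of the 5p arm for 82 hairpins, with 5 of the 6 called for their 3p to 5p ratio in orange (MIR3440b is not shown, as its 5p arm had under 10 reads) and a dashed line where both arms move alike.

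Passenger strands of some further families were raised too. Of 52 described strands that are passenger arms of conserved families, 11 were raised and 1 lowered, 38 did not pass and 2 were not tested. Over all miRNAs tested, 6.93% were raised and 2.67% lowered. The 11 include miR169f-3p, miR169g-3p, miR399c-5p and miR408-5p from above, and miR166a-5p and miR166b-5p, which are 1 sequence. An arm was labelled passenger by its family and not by its reads. miR169f-3p had more reads than its 5p arm in both groups, and miR169g-3p had more than its 5p arm under ABA only. The median ratio of the 52 strands was 0.29, with 38 above 0 and 14 below, beside a median of -0.02 over all described miRNAs. Among the 50 tested, 37 differences were above 0 with the authors' scaling and 24 with quantile normalization, where their median was -0.02. In the leaf development families (miR165, miR166, miR319 and miR396) 6 of 20 entries could be tested, all of them passenger strands. Of these 4 were raised, beside 6.93% of all miRNAs tested. The 4 raised were 5p strands of miR165 and miR166, whose 3p guides target HD-ZIP III transcription factors. The 14 entries that could not be tested were guides. miR166a-5p, with the same sequence as miR166b-5p, had 3338 and 4383 in the ABA libraries, against 2170.4 and 1666 in the mock libraries. The ABA values were higher without overlap, with a log2 difference of 1.01 (SE 0.21, adjusted p = 0.00336, limma). The guide miR166a-3p had means of 134559 under ABA and 130318 under mock, a ratio of 0.05.

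miR166e-5p was at 0.81 (adjusted p = 0.005, limma) and miR165a-5p at 0.64 (adjusted p = 0.0227). The call of miR165a-5p was lost without any one of the 4 libraries, at 0.56 to 0.72, and when only the 1 h libraries were fitted (adjusted p = 0.0927). miR166a-5p lost its call without ABA library b (0.81) or mock library b (0.82), and miR166e-5p without ABA library a (0.73) or mock library b (0.63). With quantile normalization miR166a-5p was at 0.49 and miR165a-5p at 0.20, neither called.

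Among the phase change families (miR156, miR157 and miR172) 18 of 29 entries were tested and 1 was raised, beside 6.93% of all miRNAs tested. This was miR156f-3p, the passenger strand of an SPL-targeting guide, with 14255 and 8339 in the ABA libraries, against 3481 and 5898 in the mock libraries. Its 4 libraries were widely spread, with a log2 difference of 1.27 (SE 0.39, adjusted p = 0.0461, limma). It was called in 1 of 4 fits with a library left out, that without ABA library b, and stood at 0.88 without ABA library a, 0.89 without mock library a and 1.65 (adjusted p = 0.0527) without mock library b. The guide sequence listed as miR156a-5p had means of 37123 under ABA and 46228 under mock.

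In the auxin families (miR160, miR164, miR167, miR390 and miR393) 19 of 24 entries were tested, and 1 was raised and 1 lowered, near the shares of 6.93% and 2.67% over all tested. miR167c-3p, the partner of a guide against ARF6 and ARF8, had 1466 and 1875 in the ABA libraries, against 977 and 679 in the mock libraries (log2 difference 1.03, SE 0.19, adjusted p = 0.00169, limma). Its call was lost without mock library b, at 0.76. miR164c-3p, the passenger strand of a guide against NAC transcription factors, had 218 and 174 under ABA, against 495 and 274 under mock (log2 difference -0.92, SE 0.28, adjusted p = 0.0458). The mock libraries of miR164c-3p were far apart, and it was called only without mock library b among the 4 fits, at -0.49 without mock library a, -0.75 without ABA library b and -1.08 without ABA library a. The guide of miR164a and miR164b overlapped between groups, with 5323 and 7242 under ABA and 6791 and 6041 under mock at miR164a (95% interval -0.53 to 0.44).

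The silencing families (miR162, miR168 and miR403) target DCL1, AGO1 and AGO2. Of their 10 entries 8 were tested and 1 was raised, beside 6.93% of all miRNAs tested. miR162a-5p, a passenger strand, had 119 and 163 in the ABA libraries, against 73.6 and 50.8 in the mock libraries (log2 difference 1.18, SE 0.35, adjusted p = 0.0337, limma). It was called only without mock library a among fits with a library left out, and stood at 1.40, 0.95 and 0.91 without ABA library a, ABA library b and mock library b. miR162b-5p, of the same sequence, did not pass, with 132 and 172 under ABA, against 97.1 and 79 under mock (0.77, adjusted p = 0.175), and reads cannot be assigned to either locus. The guide miR162a-3p had 2509 and 2441 under ABA, against 2473 and 3550.1 under mock, and overlapped. The families miR170 and miR171 against SCARECROW-LIKE factors (8 entries), those of tasiRNA triggers (7), those against MYB and TCP factors (5 tested of 10) and the defence families (5) had 0 calls by limma, with medians of the ratio of -0.14, -0.09, -0.01 and -0.31 over the described entries.

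A further 3 raised miRNAs belonged to none of these lists. miR823, which targets the DNA methyltransferase CMT3, had 12554 and 19219 in the ABA libraries, against 6769 and 8593 in the mock libraries (log2 difference 1.03, SE 0.29, adjusted p = 0.0312, limma). It lost its call without ABA library b (0.72), mock library a (0.85) or mock library b (1.20). miR829-3p had 2563 and 3379 under ABA, against 1802 and 1662 under mock (0.77, adjusted p = 0.0255), and kept its call only without ABA library a, standing at 0.57, 0.82 and 0.71 in the other fits. miR5633, with few reads, had 26.5 and 22.4 under ABA, against 15.2 and 4.7 under mock (1.40, adjusted p = 0.0385). Its single low mock library decided its size, with 0.65 without mock library b and 2.15 without mock library a. Quantile normalization lost the calls of miR823 (0.25) and miR829-3p (0.41).

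Apart from miR169 and miR164c-3p, the lowered miRNAs were miR860, miR1888a, miR5026, miR781a and miR781b, whose roles are left out here. miR860 (chr5:9098876-9098896, plus strand, within FC1 on the same strand) had 239 and 287 in the ABA libraries, against 549 and 587 in the mock libraries. Both groups were tight, and the log2 difference was -1.11 (SE 0.22, adjusted p = 0.00272, limma), 2.16-fold lower. It ran from -1.24 to -0.98 when single libraries were left out, called each time. miR1888a (chr5:7168879-7168899, plus strand) had 797 and 602 under ABA, against 1516 and 1534 under mock, with a difference of -1.14 (SE 0.27, adjusted p = 0.00808, limma). It lost its call without ABA library b (-0.93), mock library a (-1.15) or mock library b (-1.13).

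miR781a (chr1:7423523-7423543, plus strand) and miR781b (chr1:7423585-7423605, minus strand), both across the gene AT1G21200 and of 1 sequence, had differences of -0.89 and -0.85 (adjusted p = 0.0303 and 0.0337, limma). miR781a had 396 and 323 in the ABA libraries, against 555 and 792 in the mock libraries, and both were called only without mock library a, with -0.63 for miR781a without mock library b. miR5026 had 3160.4 and 3962 under ABA, against 7880.3 and 5091 under mock (-0.84, SE 0.20, adjusted p = 0.00895). Without ABA library a it was at -0.68 and without mock library a at -0.52, neither called. 

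The most abundant miRNAs could be compared by group means only, with no error of their own. The highest was the guide of miR393, which targets the auxin receptors TIR1 and AFB. The entry miR393a-5p had 1119419 under ABA and 702798 under mock, a ratio of 0.67, and miR393b-5p, of the same sequence, had the same means. Each of the 2 entries was 14.6% of the ABA total and 10.1% of the mock total. Both may hold the same reads, so these are shares of the summed entries and not of reads. miR159a, which targets MYB transcription factors in ABA signalling, had 603719.8 under ABA and 810709 under mock, a ratio of -0.43, while miR159b-3p was at -0.09. miR168a-5p, the AGO1 regulator, had 522594 under ABA and 390835 under mock, a ratio of 0.42.

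Of the 41 without library values (23 distinct sequences), 32 lay within 1.5-fold, 19 above 0 and 22 below. The 4 entries at least 1.5-fold higher under ABA were miR393a-5p, miR393b-5p, miR167d with 44965 under ABA and 28224 under mock, and miR397b. The 5 at least 1.5-fold lower were miR824-5p, miR158a-3p, miR157a-5p, miR157b-5p and miR156a-3p. miR824-5p, which targets AGL16 in the stomatal lineage, had 40383 under ABA and 69872 under mock, a ratio of -0.79. miR158a-3p had 137124 under ABA and 218426 under mock, a ratio of -0.67. The authors' deposited table has 0 of the 41 under an adjusted p of 0.05, with a lowest value of 0.104 for miR824-5p. Another miR167 guide, miR167a-5p, had 233823 under ABA and 315368 under mock, a ratio of -0.43, and how it differs from miR167d was not tested.

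**Figure D4:**
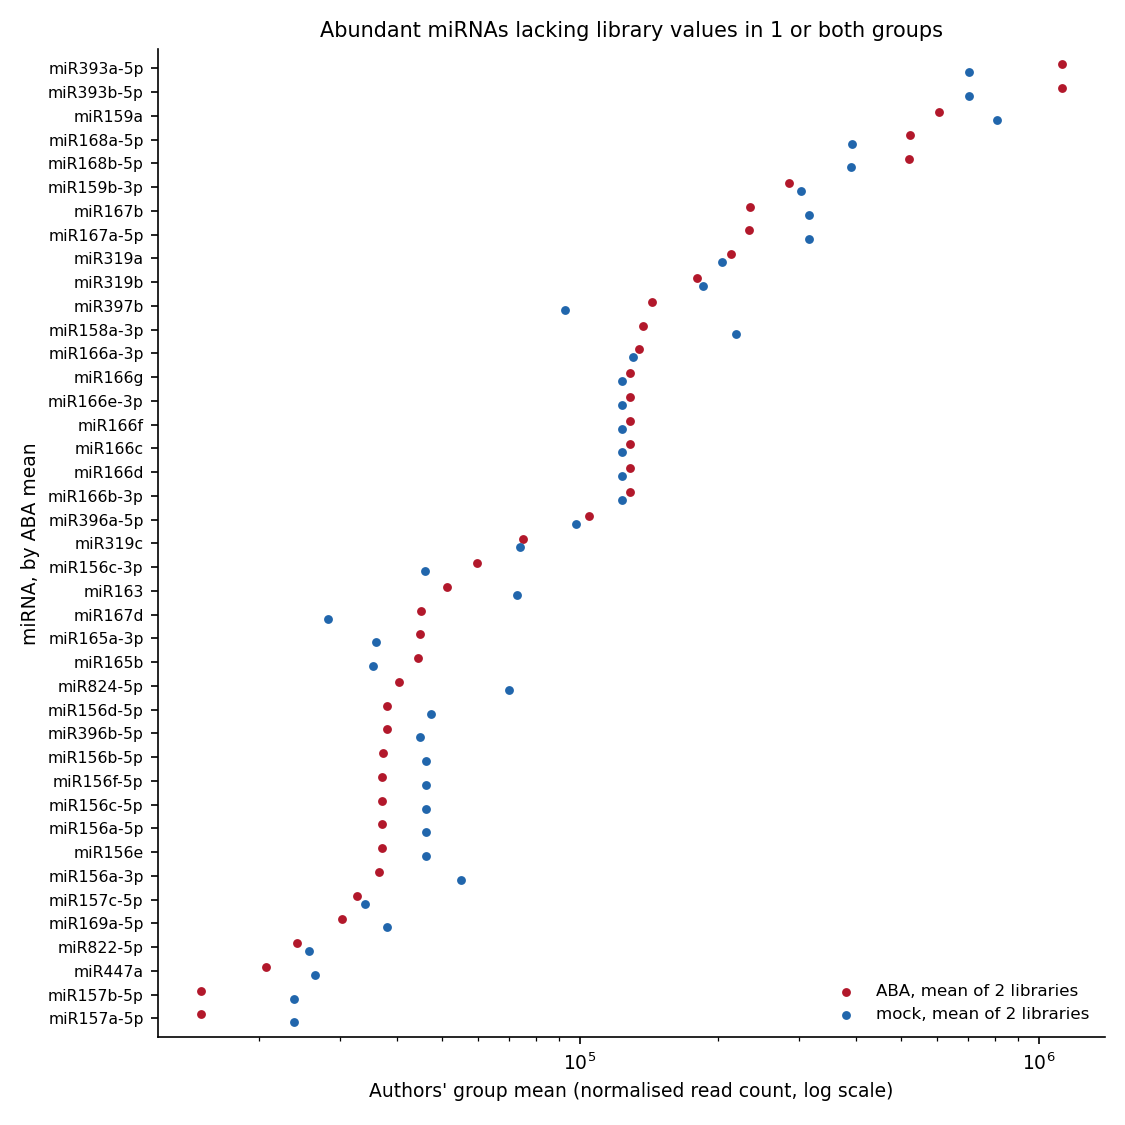
Authors' group means (normalised read count, log axis) of the 41 abundant miRNAs that lack library values in 1 or both groups, ABA in red above mock in blue on each line, in order of the ABA mean. The points of miR393a-5p stand at 1119419 for ABA and 702798 for mock, those of miR824-5p at 40383 and 69872, and no error is known for any of them.

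Among families that other work lists as ABA-induced (miR402, miR397, miR394, miR393, miR168 and miR159) there was 1 raised entry, miR397a, among 18 described, with 10 not passing, 7 not tested and a median of 0.21. This count of 1 in 11 tested is near the 6.93% raised over all tested. miR402 had 45.3 and 58.4 in the ABA libraries, against 66 and 126 in the mock libraries (log2 difference -0.81, 95% interval -1.65 to 0.02). The guide of miR394 had 796 and 674 under ABA, against 736 and 456 under mock, at miR394a. Those listed elsewhere as repressed (miR846, miR842 and miR169) had 3 lowered and 2 raised among 21, with a median of -0.59. Over all miRNAs tested, 2.67% were lowered and 6.93% raised. All 5 calls were those of miR169. miR842 was at -0.10 (95% interval -0.51 to 0.32) and miR846-3p at -0.04 (-0.71 to 0.62).

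The difference at 1 h was set against that at other times within the same fit. No difference between 1 h and 0.5 h was called by limma, 0% of 366, with 25 at an unadjusted p under 0.05. At 0.5 h all 24 of the raised miRNAs with values were above 0 and 16 were called, and all 9 lowered ones were below 0 and 2 were called, beside 5.46% raised and 1.64% lowered of all 366. Across the 305 miRNAs with values at both times, the log2 differences at 1 h and 0.5 h had a Pearson r of 0.65, a description over miRNAs that share libraries and are not independent. This r was 0.59 with 3 h, 0.40 with 6 h, 0.36 with 9 h, 0.20 with 12 h and 0.13 with 24 h. Of the 26 raised miRNAs, 23 had values at 3 h, and 6 were called raised then (3.93% of all tested). All 26 had values later, with 7 called raised at 6 h (4.24%), 7 at 9 h (7.08%), 8 at 12 h (6.91%) and 7 at 24 h (10.5%). At 12 h 4 of them were called lowered (4.14% of all tested), and at 24 h 5 (10.7%). The lowered miRNAs with values were below 0 in 8 of 8 at 3 h, 9 of 9 at 6 h and 9 of 9 at 9 h. They were below 0 in 6 of 8 at 12 h and 8 of 9 at 24 h. Called lowered at these 5 times were 1, 2, 3, 2 and 2, beside 9 of 356, 18 of 377, 23 of 367, 15 of 362 and 40 of 373 over all tested.

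Against 3 h only miR2111b-3p was called, 0.281% of 356. Its difference was 0.40 at 1 h and 2.08 at 3 h, so 1 h minus 3 h was -1.67 (adjusted p = 0.0077, limma). Without ABA library b or mock library a it was -1.65 and -1.64, with adjusted p = 0.0529 and 0.0528. Against the mean of the other 6 times, 13 entries were called, 3.66% of 355, and some of these entries share 1 sequence. miR2111b-3p was not called at 1 h itself, with 266 and 256 in the ABA libraries, against 202 and 193 in the mock libraries, while the mean of its differences at the other times was 1.77. miR390a-5p, the trigger of TAS3 tasiRNAs, was at 0.24 at 1 h and at -0.77 as a mean of the other times and at -1.53 at 24 h.

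Raised at 1 h more than as a mean of the other times were miR395b, miR395c and miR395f, miR169f-3p and miR169g-3p, and miR399c-5p. For miR395b the log2 difference was 2.27 at 0.5 h, 2.19 at 1 h, 0.93 at 3 h and -1.16 at 24 h. For miR169f-3p it was 1.07 at 0.5 h, 1.54 at 1 h, 0.51 at 3 h and -1.05 at 24 h. The copper miRNA miR397a was higher at the later of these times, with 0.91 at 0.5 h, 1.58 at 1 h and 2.20 at 3 h, and its contrast of 1 h with the other times was not called. miR167a-3p and miR169b-3p were near 0 at 1 h, at 0.04 and 0.00, and below 0 at the other times, with means of -1.41 and -1.39.

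**Figure D5:**
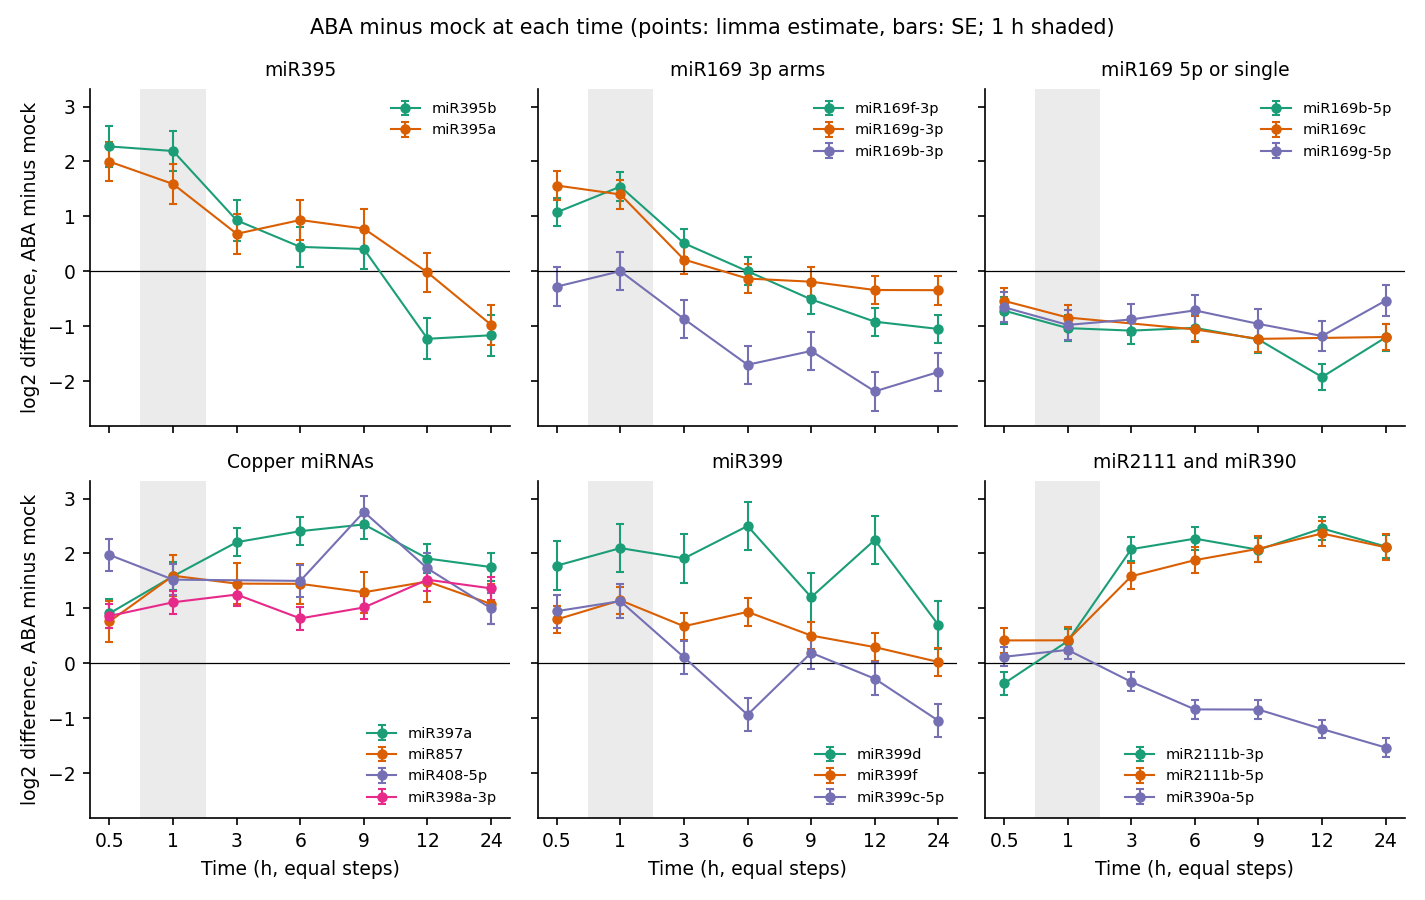
Log2 difference of ABA minus mock (limma estimate, bars are SE) at the 7 times for miRNAs of 6 families, with 1 h shaded; times are evenly spaced on the axis, and a line passes over a time without library values. miR395b stands at 2.19 at 1 h and -1.16 at 24 h and miR169f-3p at 1.54 and -1.05, while miR2111b-3p stands at 0.40 at 1 h and 2.08 at 3 h.

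The called miRNAs shared few sequence features beyond their families. The 20 distinct raised sequences with a match held 17 seeds, and only UGAAGUG (miR395), GCCAAAG (miR399) and GAAUGUU (miR165a-5p and miR166e-5p) occurred more than once. Of the raised sequences 10 began with U, 6 with G, 2 with C and 2 with A, beside 145 with U, 67 with A, 33 with G and 27 with C among the 272 distinct described sequences. The G starts included 4 passenger strands of miR156, miR165 and miR166 and the 3p arm of MIR169f. Seed GCCAAAG had 6 described members with a median ratio of 1.04, of which 2 were raised, and seed AGCCAAG of miR169 had 10 with a median of -0.77, of which 2 were lowered. In all, 45 sequences were shared by 123 described entries.

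At the level for description, the 3 miRNAs just below a mean of 10 were miR870-3p at 8.88, miR2934-5p at 9.29 and miR5631 at 9.31. Those just above were miR394b-3p at 10.3, miR5648-5p at 10.3 and miR5018 at 10.7.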

How the data were processed

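Small RNA libraries of 28 seedling samples (14 groups of 2) were sequenced by the authors on an Illumina platform. FastQC, STAR and TAIR10 are named, without versions, per the submitters' processing notes; the sources used here do not say how reads were assigned to miRNAs, normalised and tested. The deposited table gives, for each miRNA and group, a normalised signal (read counts divided by size factors, averaged over the group), with 1 scaling per time, and the authors' adjusted p-value for each time. No column belonged to an unlabelled sample (0 columns).

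Each group value was split into 2 whole counts and size factors, and accepted only where exactly 1 pair fitted. All low values at 1 h had at least 1 pair with the fitted steps, and 0% had one with random steps. The fitted steps came from these same values and were given a wider tolerance, so this comparison does not test the split. At 1 h, 386 of 421 ABA values and 380 of 421 mock values were split. The size factors were 0.904 and 0.805 for ABA and 1.32 and 1.06 for mock. The abundant miRNAs had too many possible pairs, so the design, which had assumed a value per library for all miRNAs, was kept for the others and group means were used for these. Where a miRNA lacked library values at some time, the fit used fewer libraries: miR408-5p, miR156f-3p, miR823 and miR169c had none at 1 or 2 times.

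Library values of at least 1 in at least 2 libraries were tested as log2(value + 1) with limma 3.58.1 in R 4.3.3 (1 mean per group, trended empirical Bayes, Benjamini-Hochberg adjustment over all miRNAs tested). The difference at 1 h was also set against that at 0.5 h, at 3 h and as a mean of the other 6 times. Scripts were tested on simulated data. Alternatives were other pseudocounts, filters and scalings, fits of the 1 h libraries alone, and leaving out each library. The ratio of hairpin arms was added after the data had been seen. Named miRNAs were the 15 largest calls in each direction, the 12 with the highest level, those at least 1.5-fold apart without library values, all called by the authors, the 6 smallest p per difference between times, 3 on each side of the level for description, and family or list members and other arms as examples. The miRNAs and lists were chosen with earlier results of these data known. Sequences came from RefSeq TAIR10.1. Tables and plots used Python 3.11.15, numpy 2.4.6, pandas 2.3.3, scipy 1.17.1 and matplotlib 3.10.9.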

Additional observations from a re-analysis of the deposited data

Results flagged for a closer look

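For 13 miRNAs the log2 difference of ABA minus mock at 1 h differed from the mean of those at the other 6 times, and for miR2111b-3p also from that at 3 h (limma, adjusted p under 0.05 for the difference itself). Against 3 h, miR2111b-3p stood at -1.67 (adjusted p = 0.0077), with the call lost without ABA library b or mock library a. Below the mean of the other times were miR2111b-3p at -1.37 (adjusted p = 0.0016), miR2111b-5p at -1.32 and miR2111a-5p at -1.31 (adjusted p = 0.0029 each), the last 2 being 1 sequence. Above it were miR390a-5p and miR390b-5p at 1.02 each (adjusted p = 0.0023), 2 loci of 1 sequence, and miR169f-3p at 1.69 (adjusted p = 0.0016). These 6 calls held without any one library of the 1 h groups.

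The single sequence listed as miR395b, miR395c and miR395f stood at 1.91, 1.92 and 1.90 above the mean of the other times (adjusted p = 0.005 each). All 3 lost their call without ABA library b, at 1.49 for miR395b (adjusted p = 0.0954). miR169g-3p stood at 1.27 (adjusted p = 0.0083) and lost its call without ABA library a or mock library b. miR167a-3p stood at 1.46 (adjusted p = 0.0222), called in 1 of 4 fits, that without ABA library b. miR399c-5p stood at 1.30 (adjusted p = 0.0222) and miR169b-3p at 1.39 (adjusted p = 0.0408), each called in 1 of 4 fits, that without mock library a.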

How the results depend on the processing

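No paired analysis was possible because the deposited columns carry no replicate numbers. Raised calls (26 in the main test) numbered 15 with quantile normalization, 15 by the authors' adjusted p and 11 to 21 with 1 library left out. Lowered calls (10) numbered 16 with only the 1 h libraries, 23 with quantile normalization, 4 by the authors' adjusted p and 3 to 4 with 1 library left out. Against 3 h, the calls (1) numbered 2 with median centring and 0 to 1 with 1 library left out. Against the other 6 times they were 13, and 9 to 14 with 1 library left out, and against 0.5 h they stayed at 0. Ratios at least 2-fold higher (25) numbered 16 with the group totals set equal. Ratios at least 2-fold lower (5) numbered 3 with a pseudocount of 5, 3 with a mean of at least 50 and 10 with totals set equal. Calls of hairpin arm ratios (6) numbered 3 with only the 1 h libraries and 2 to 7 with 1 library left out. No called miRNA changed sign. Under quantile normalization lowered calls outnumbered raised ones, the arms of miR398b and miR398c were below 0, and the median of the passenger strands was -0.02, against 0.28 with the authors' scaling. Of the 35 called miRNAs, quantile normalization lost 11 and the fit of only the 1 h libraries 2; of 140 values with 1 library left out, 67 lost the call. Why these calls were lost was not tested. With 2 libraries a group, and none for the 41 abundant miRNAs, smaller differences could not be resolved.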
